A study of Mus musculus with 24 samples.

Results

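The acute phase and complement proteins are secreted mostly by hepatocytes. They were examined here as a list of 33 genes on arrays of mouse liver, from the serum amyloid A genes Saa1 to Saa4 to the last components of the complement cascade. Members were all probe sets for which the platform annotation gave exactly 1 gene symbol belonging to that list. This gave 48 probe sets of 32 genes, among 45037 probe sets and 18193 genes with such a probe set. No probe set listed C3 alone, so the central complement component was not analysed here.

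The animals were 18 male C57BL6J mice, with 1 array per mouse and 6 mice per diet. HF+P mice ate a 45% high-fat diet with 5% powdered Japanese yam propagules, HF mice ate that high-fat diet without the powder, and LF mice ate a low-fat diet. The labels do not say what the 45% refers to. All groups were on their diet for 4 weeks and fasted for 16 h before the liver was taken. The labels name no transgene, mutation or drug in any group and give no age. The 6 HF arrays were processed by the authors once with the LF arrays and once more with the HF+P arrays, so the 2 comparisons, HF with LF and HF+P with HF, share the same 6 HF mice. Results of the 2 comparisons are therefore not independent of each other and are given side by side.

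The acute phase response is the change in plasma proteins that follows infection or injury. Interleukin 6, interleukin 1 and tumour necrosis factor reach the hepatocyte and act through STAT3, C/EBP and NF-kappaB factors on genes such as those of serum amyloid A, haptoglobin and fibrinogen. Complement is a cascade of plasma proteases and pore-forming proteins. It is started by antibodies, by mannose-binding lectins on microbial sugars or by the alternative pathway, and it ends in the membrane attack complex.

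The deposited values were taken as log2 intensities and differ very little between arrays. The median within-group standard deviation (SD) was 2.33e-05 for the 48 member probe sets and 4.06e-06 for all probe sets in the values of HF and LF. Differences are thus not read as fold changes. Sizes are given as standardized differences: group means are subtracted and divided by the pooled SD within groups, with a small-sample correction and a 95% interval. Values of single mice are given either as deposited or in pooled SDs from the mean of the control group, which is LF for HF livers and HF for HF+P livers. P-values come from limma, two-sided, adjusted over all 45037 probe sets with a threshold of 0.05. They set the difference of group means against the spread of these mice within groups, moderated over probe sets.

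Markers of the labelled tissue were bright: the 9 measured hepatocyte markers had mean deposited values between 11.99 for Tat and 14.88 for Alb, on a scale that runs from 5.361 to 15.02. The 48 member probe sets had mean values between 6.57 and 14.0. A whole-liver sample cannot tell fewer cells of a type from less RNA per cell.

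No member passed the test in either comparison. In HF against LF, 0 of 48 probe sets were called higher, where 0.269% of all probe sets were, and 0 were called lower, where 0.402% were. The smallest adjusted p of a member was 0.0679, for 1 probe set of Masp1. In HF+P against HF, 0 members were called higher and 0 lower, against 0.00222% and 0% of all probe sets, and the smallest adjusted p was 0.515, for Orm1. The other limma setting, with a mean-variance trend and robust moderation, also called 0 members in both comparisons. It called 0.253% of all probe sets higher and 0.391% lower in HF against LF, and 0.00222% and 0% in HF+P against HF.

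Below that threshold the members lay mostly on one side in each comparison. In HF livers 39 of 48 probe sets, standing for 28 of 32 genes, had the higher mean, whereas 50.8% of all probe sets did. At an unadjusted p below 0.05 there were 13 higher and 1 lower member probe sets, 27.1% and 2.08%, beside 5.69% and 7.25% of all probe sets. In HF+P livers 35 of 48 probe sets and 26 of 32 genes had a lower mean than in HF livers. At the same unadjusted threshold 0 members were higher and 7 lower, where 3.74% and 3.2% of all probe sets were. No member separated the groups in HF+P against HF, where 0.162% of all probe sets lay wholly higher and 0.193% wholly lower in HF+P. The median standardized difference of the members was 0.63 in HF against LF and -0.51 in HF+P against HF, with medians over all probe sets of 0.015 and -0.0095.

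These counts depend on 2 things that were measured. The first is scaling. The column medians were on average 3.36e-05 higher in HF than in LF, and the differences of 26 of the 48 members were smaller than that. After each array was centred on its median, 14 member probe sets were higher and 34 lower in HF, with a median of -1.33 beside -2.72 over all probe sets, and 3 members were called higher and 25 lower, where 0.715% and 93.4% of all probe sets were. The 3 were both probe sets of Saa1 and that of Saa2. Centring moves all probe sets alike, so calls of lower values under it do not bear on single genes. With that many calls the adjustment is also lenient, so the 3 higher calls add no support. The values in HF+P against HF then stood at 25 higher and 23 lower. After quantile normalisation, 23 members in HF against LF and 26 in HF+P against HF held the same value on all 12 arrays, and the others stood at 14 higher and 11 lower, and at 9 higher and 13 lower. The directions below hold for the values as deposited, unless both scalings are named. The second is single mice. The count of 7 lower members in HF+P livers became 4 without HF+P mouse 1 and 4 without HF+P mouse 2, beside 2.89% and 2.91% of all probe sets. It became 9 without HF+P mouse 3 (beside 3.33%) and was 7 without HF mouse 3 (beside 3.08%).

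**Figure D1:**
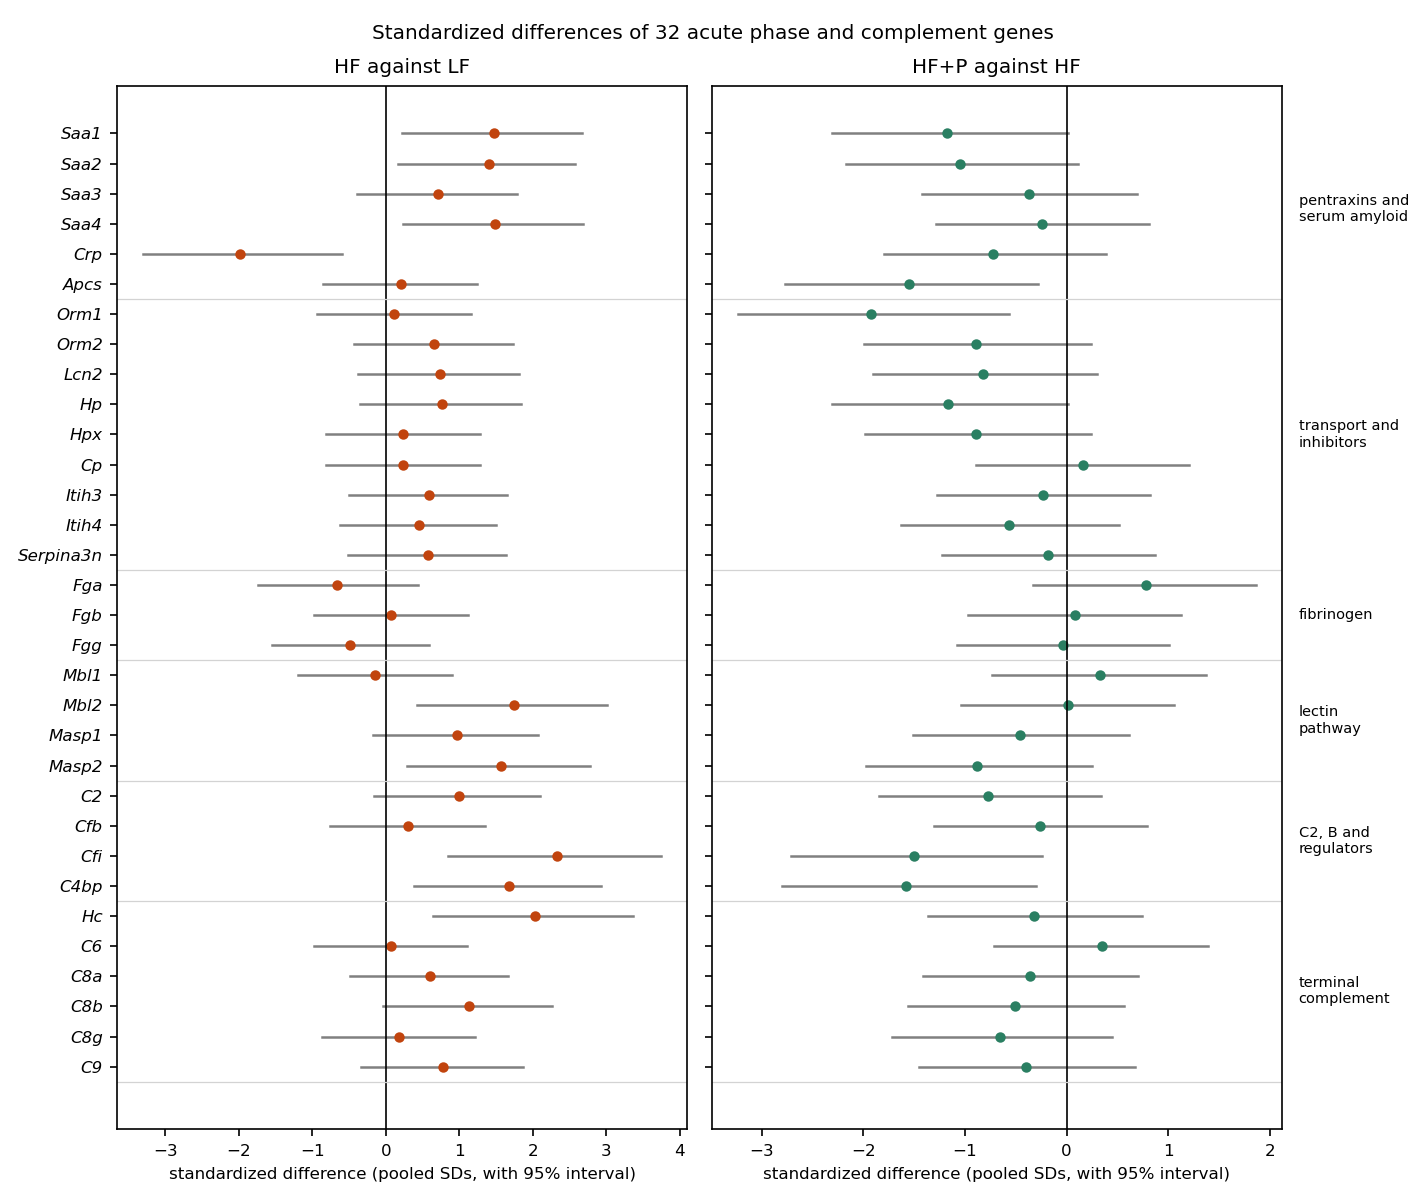
Standardized differences (points, in pooled SDs) with 95% intervals (lines) of 32 acute phase and complement genes, 1 probe set per gene, for HF against LF (left) and HF+P against HF (right), 6 mice per group. Values above 0 mean higher in HF on the left and higher in HF+P on the right. On the left 28 genes lie above 0, with Crp farthest below at -1.98, and on the right 26 lie below 0, with Orm1 farthest at -1.93.

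Serum amyloid A proteins are the classical acute phase reactants of the mouse. SAA1 and SAA2 are made by the liver and travel on high-density lipoprotein, SAA3 is made also by macrophages and fat tissue, and SAA4 is the form present without stimulation. All 4 genes had higher means in HF than in LF livers, with standardized differences between 0.71 and 1.48, and all 4 had lower means in HF+P than in HF livers, between -1.17 and -0.24. None passed the test, and the smallest adjusted p of a brightest probe set was 0.241 for HF and 0.710 for HF+P.

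Saa1, in the probe set 1419075_s_at, ran from 9.61 over a median of 9.64 to 9.79 in HF livers and from 9.56 over 9.58 to 9.61 in LF livers. The groups overlapped by 1 HF mouse, number 2, and 5 of 6 HF mice lay above every LF mouse. This gave a standardized difference of 1.47 (0.22 to 2.67; adjusted p = 0.245). The second Saa1 probe set, 1450788_at, gave 1.35 (0.12 to 2.52). In the second processing, HF+P livers ran from 9.68 over 9.70 to 9.73 and HF livers from 9.71 over 9.74 to 9.86. There 4 HF+P mice were lower than all HF mice. The difference was -1.17 (-2.31 to 0.01; adjusted p = 0.710), and -1.23 (-2.38 to -0.04) in the other probe set.

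Saa2 was the 1 member probe set whose HF and LF values did not overlap with HF higher, where 0.644% of all probe sets were so placed. HF livers ran from 8.57 over 8.59 to 8.71 and LF livers from 8.53 over 8.54 to 8.57, where the lowest HF mouse, number 2, and the highest LF mouse, number 4, were nearly equal. The standardized difference was 1.40 (0.17 to 2.58; adjusted p = 0.270). HF+P livers held 8.61, 8.63 and 8.65 as lowest, median and highest values, against 8.64, 8.66 and 8.77 in HF livers, with a difference of -1.05 (-2.17 to 0.11; adjusted p = 0.740).

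Saa3 separated 1 mouse rather than the groups. HF livers ran from 7.573 over 7.578 to 7.667 and LF livers from 7.564 over 7.568 to 7.586, and HF mouse 3 alone lay above the highest LF mouse. Saa3 stood at a standardized difference of 0.71 (-0.39 to 1.79; adjusted p = 0.623). HF+P livers lay between 7.560 and 7.582 and HF livers between 7.565 and 7.652, with a difference of -0.37 (-1.42 to 0.69; adjusted p = 0.920).

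Saa4 did not follow the same mouse. In pooled SDs from the LF mean, HF livers ran from 0.71 over 1.70 to 2.47 and LF livers from -0.96 over -0.62 to 2.14, with HF mouse 2 and LF mouse 2 the highest of their groups. The standardized difference was 1.48 (0.23 to 2.68; adjusted p = 0.241), and it was 1.48 in the second probe set too. HF+P livers differed from HF livers by -0.24 (-1.29 to 0.81; adjusted p = 0.954).

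HF mouse 3 had the highest value of the 6 HF mice for Saa1, Saa2 and Saa3, and also for Lcn2, Orm2, Hp and Hpx. Lcn2 encodes lipocalin 2, which binds bacterial siderophores. Orm1 and Orm2 encode orosomucoids, plasma carriers of basic and lipophilic molecules. Lcn2 ran from 6.97 over 6.98 to 7.03 in HF livers and from 6.96 over 6.97 to 6.99 in LF livers, a standardized difference of 0.74 (-0.37 to 1.81; adjusted p = 0.610). Orm2 ran from 7.373 over 7.376 to 7.394 in HF livers and from 7.372 over 7.375 to 7.377 in LF livers, a difference of 0.66 (-0.44 to 1.73; adjusted p = 0.652). In both genes 2 of 6 HF mice lay above every LF mouse, and the other HF mice lay among the LF mice.

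The same mouse was highest when its array was processed with the HF+P arrays. Lcn2 then ran from 7.132 over 7.138 to 7.139 in HF+P livers and from 7.137 over 7.142 to 7.180 in HF livers, with a difference of -0.82 (-1.91 to 0.30; adjusted p = 0.796). Orm2 ran from 7.2721 over 7.273 to 7.280 in HF+P livers and from 7.274 over 7.277 to 7.297 in HF livers, with a difference of -0.90 (-1.99 to 0.24; adjusted p = 0.776). For Orm2 5 HF+P mice were lower than all HF mice, and HF+P mouse 3 stood apart above them.

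**Figure D2:**
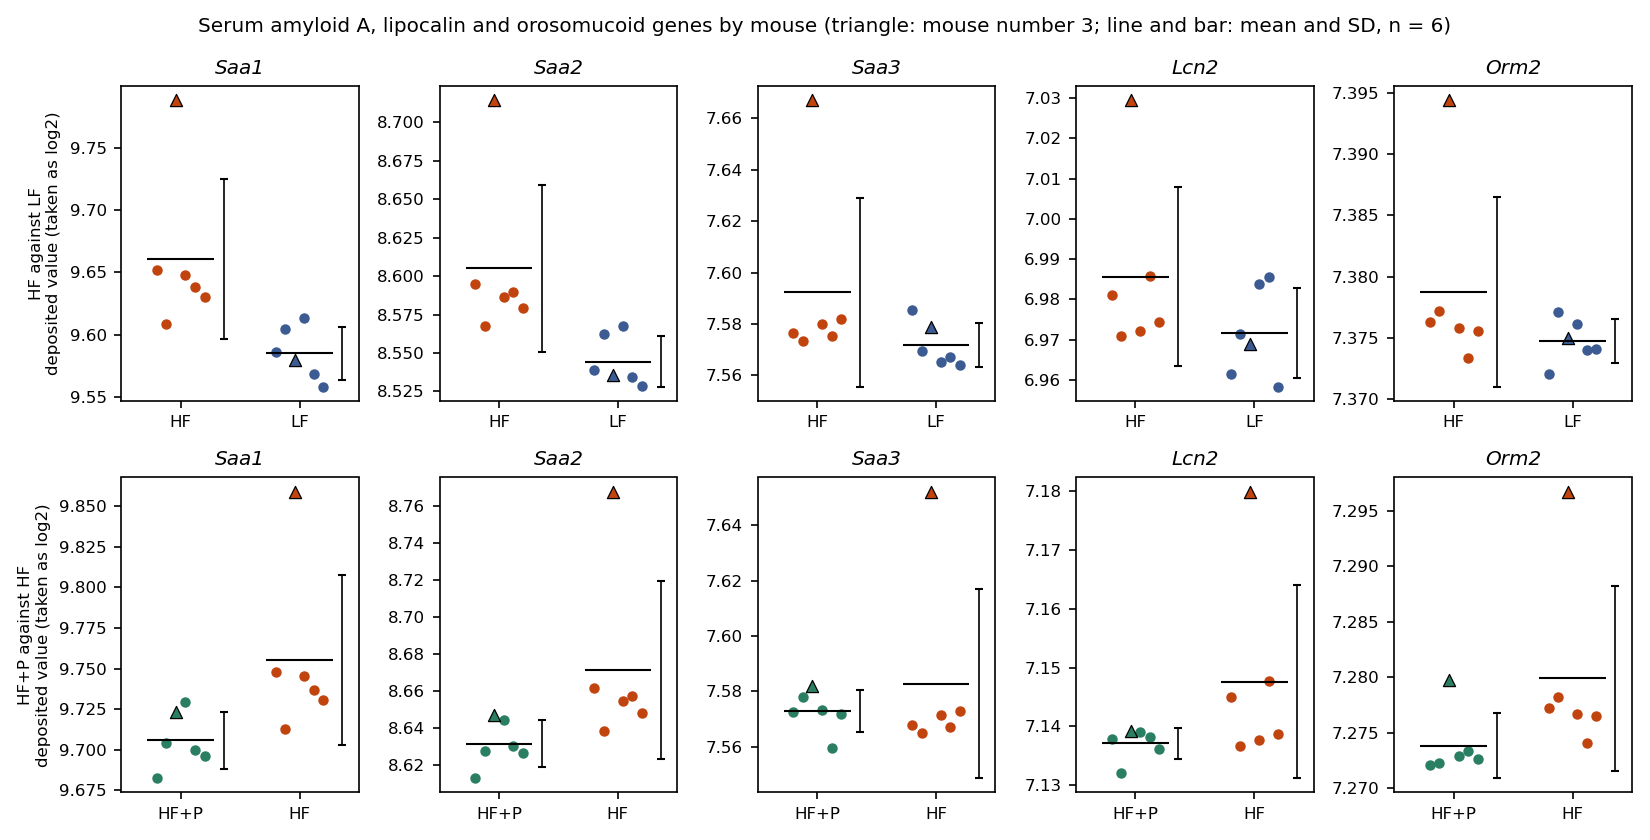
Deposited values (taken as log2) of Saa1, Saa2, Saa3, Lcn2 and Orm2 in every mouse: HF and LF livers in the upper row, HF+P and HF livers in the lower row. Each point is a mouse, triangles mark the mouse numbered 3 of each group, and lines and bars give mean and SD (n = 6). The HF triangle is the highest point of every panel.

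Leaving out HF mouse 3 moved these genes in different ways. For Saa1 and Saa2 the standardized differences between HF and LF were then larger, 2.38 and 2.54, but neither passed (adjusted p = 0.101 and 0.0878). Saa3, Lcn2 and Orm2 stood at 0.76, 0.51 and 0.51. In HF+P against HF the differences were -1.64 for Saa1, -1.68 for Saa2, -0.97 for Lcn2 and -1.03 for Orm2, and that of Saa3 changed sign, at 0.60. Over all members, 12 probe sets were then higher and 1 lower at an unadjusted p below 0.05 in HF against LF, beside 5.65% and 6.37% of all probe sets. Under both quantile normalisation and median centring, Saa1, Saa2, Saa3, Lcn2 and Orm2 kept their direction in both comparisons. In HF against LF, Saa1 and Saa2 passed with median centring, at 1.47 and 1.34 in the Saa1 probe sets (adjusted p = 0.0125 and 0.0198) and at 1.40 in Saa2 (adjusted p = 0.0162), and did not pass with quantile normalisation. The sizes with median centring were close to those in the values as deposited. The adjustment runs over all probe sets, of which 93.4% were then called lower, so these calls add no support. Of these genes Orm2 had the narrowest spread, and its within-group SD lay at the 99.7th percentile of all probe sets.

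Lists of markers of other cell types also scored high in this mouse. Its list score, the mean over a list's genes of the value in pooled SDs from the LF mean, was 2.07 for 13 Kupffer cell and macrophage markers, 2.17 for 11 lymphocyte and NK cell markers and 1.26 for 10 neutrophil markers. The next HF mouse stood at 0.66, 1.01 and 1.18. Over all mice the Kupffer cell score ran from -0.45 to 2.07 in HF livers and from -0.72 to 1.47 in LF livers, where LF mouse 3 was highest. The lymphocyte score ran from 0.13 to 2.17 in HF livers and from -0.45 to 0.28 in LF livers, and the neutrophil score from -0.11 to 1.26 and from -0.14 to 0.41. The part of these cells in the values of HF mouse 3 was not tested. No marker is listed at 0, since no value is below 5.361. The median mean level was 8.04 for the Kupffer cell and macrophage markers. It was 6.86 for the lymphocyte and NK cell markers and 6.79 for the neutrophil markers. The median of the columns was 6.90 in the values of HF and LF. Whether the dim markers were detected above background was not tested.

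Sequence upstream of the 5 genes with the widest spread is shown because all of them were highest in the same HF mouse. The genes were chosen after their values were seen. The windows hold 250 bases before the transcription start, from RefSeq on GRCm38.p6, read 5′ to 3′ on the strand of the gene. The deposited files name no build. Capitals mark TTGCNNAA, a core of sites bound by C/EBP factors, on either strand. The windows are chr7:46742981-46743230 (minus strand) for Saa1, chr7:46751583-46751832 (plus) for Saa2, chr7:46715677-46715926 (minus) for Saa3, chr2:32387740-32387989 (minus) for Lcn2 and chr4:63362199-63362448 (plus) for Orm2.
Saa1: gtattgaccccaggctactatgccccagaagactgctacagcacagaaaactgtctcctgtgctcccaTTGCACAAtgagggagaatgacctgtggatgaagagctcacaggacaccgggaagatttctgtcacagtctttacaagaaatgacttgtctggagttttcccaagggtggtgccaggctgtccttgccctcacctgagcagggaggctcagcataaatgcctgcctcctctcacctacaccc
Saa2: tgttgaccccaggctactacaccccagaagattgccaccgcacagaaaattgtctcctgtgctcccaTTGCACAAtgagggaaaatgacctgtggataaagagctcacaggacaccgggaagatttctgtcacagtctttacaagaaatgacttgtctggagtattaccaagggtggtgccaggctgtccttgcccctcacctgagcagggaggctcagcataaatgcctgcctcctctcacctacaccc
Saa3: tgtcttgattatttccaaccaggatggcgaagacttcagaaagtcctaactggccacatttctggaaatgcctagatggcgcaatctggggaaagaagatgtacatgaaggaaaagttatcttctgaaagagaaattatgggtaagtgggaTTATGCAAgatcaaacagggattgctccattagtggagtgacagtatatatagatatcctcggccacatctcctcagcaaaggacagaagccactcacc
Lcn2: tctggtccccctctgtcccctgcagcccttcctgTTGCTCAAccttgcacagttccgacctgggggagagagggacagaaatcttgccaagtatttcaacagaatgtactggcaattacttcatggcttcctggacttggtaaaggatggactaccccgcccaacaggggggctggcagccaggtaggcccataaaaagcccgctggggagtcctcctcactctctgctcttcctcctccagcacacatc
Orm2: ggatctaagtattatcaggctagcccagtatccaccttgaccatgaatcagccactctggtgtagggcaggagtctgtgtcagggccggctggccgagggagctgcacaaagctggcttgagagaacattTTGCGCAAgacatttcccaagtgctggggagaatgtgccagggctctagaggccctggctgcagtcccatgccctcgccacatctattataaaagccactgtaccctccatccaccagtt

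The match lay 182 to 175 bases before the start in Saa1, 183 to 176 in Saa2, 99 to 92 in Saa3, 216 to 209 in Lcn2 and 120 to 113 in Orm2. The Saa1 and Saa2 windows were 94.8% identical in a global alignment, while the other pairs were between 46.2% and 53.2% identical. RefSeq lists Saa2 among the older names of Saa1 and Saa1 among those of Saa2, and close copies can share probes, so the split between these 2 genes is uncertain. The same holds for Orm1 and Orm2.

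RefSeq promoters, listed from 250 bases before to 50 after the start, were found for 27 of the 33 listed genes. Only the 250 bases before the start were searched for motifs. TTGCNNAA was present in 12 of these 27 genes and in 9.56% of all 32851 promoters. The 12 were C3, C9, Cp, Fga, Fgb, Hpx, Lcn2, Orm2 and Saa1 to Saa4. A looser form, TTNNGNAA, which overlaps the first, was present in 17 genes and in 36.8% of promoters. TTCNNNGAA, bound by STAT factors, was found in 6 genes (Apcs, C8a, Fga, Fgb, Itih4 and Masp2) and in 7.02% of promoters, and GGGNNTTCC, bound by NF-kappaB, in 1 gene, Fgb, and in 4.98%. The last pair of motifs overlap each other in Fgb. In the order given, the motifs were in 12, 18, 6 and 1 of the 29 promoters of these genes. All were searched on both strands, and a match is only a run of letters.

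Lcn2 and Orm2, described above, belong to the binding and transport proteins, together with Orm1, Hp, Hpx and Cp. Haptoglobin (Hp) binds free haemoglobin, haemopexin (Hpx) binds haem, and ceruloplasmin (Cp) carries copper and oxidises iron. All 6 genes of this group had higher means in HF than in LF livers, with values between 0.11 for Orm1 and 0.76 for Hp, and none passed. Between HF+P and HF 5 of 6 had lower means in HF+P.

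Orm1 had the largest difference of all members in that comparison. In pooled SDs from the HF mean, HF+P livers ran from -3.39 over -2.16 to -0.52 and HF livers from -1.36 over 0.36 to 1.05. There 5 HF+P mice were lower than all HF mice, and HF+P mouse 7 lay among them. The standardized difference was -1.93 (-3.23 to -0.56; adjusted p = 0.515). In HF against LF it was 0.11 (-0.94 to 1.16; adjusted p = 0.962). After quantile normalisation Orm1 held 1 value on all 12 arrays.

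Hp stood at -1.17 (-2.31 to 0.01; adjusted p = 0.727) in HF+P against HF. HF+P livers lay between -1.99 and -0.36 pooled SDs from the HF mean and HF livers between -0.82 and 2.58, with HF mouse 3 the highest and 5 of 6 HF+P mice below every HF mouse. Hpx stood at -0.89 (-1.98 to 0.24; adjusted p = 0.780). Its value in HF against LF, 0.24 (-0.82 to 1.28), became -0.49 without HF mouse 3.

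Cp was read by 8 probe sets, which did not point one way. In HF against LF the brightest, 1417494_a_at, gave 0.24, and 5 of the other probe sets were negative, between -0.56 for 1448735_at and -0.08 for 1448734_at. In HF+P against HF the brightest gave 0.16 and 1417496_at gave -0.53. None passed as deposited. After quantile normalisation 1417497_at and 1448735_at were called lower in HF, at -1.88 and -2.04, where 14.6% of all probe sets were called lower.

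The 3 inhibitor-type members showed small positive values in HF livers: 0.58 for Itih3 and 0.45 for Itih4, heavy chains of the inter-alpha-trypsin inhibitor family, and 0.58 for the serine protease inhibitor Serpina3n. Between HF+P and HF they stood at -0.23, -0.57 and -0.18. No adjusted p of this group was below 0.700 in HF against LF or 0.864 in HF+P against HF.

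Fga, Fgb and Fgg encode the chains of fibrinogen, the clot protein. In HF and LF their within-group SDs lay at or below the 0.48th percentile of all probe sets, and only 8 to 11 different values occurred among 12 arrays. Deposited member values of 10 or more carry at most 8 decimals. Standardized differences in HF against LF were -0.67 for Fga, 0.07 for Fgb and -0.49 for Fgg, with adjusted p between 0.923 and 0.991. The values for HF+P against HF were 0.78, 0.08 and -0.04. HF mouse 3 was the lowest HF mouse for Fgb and Fgg in both processings, opposite to its place in the serum amyloid genes.

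The pentraxins are ring-shaped pattern recognition proteins. In the mouse, serum amyloid P, encoded by Apcs, is the strongly inducible one, and C-reactive protein, encoded by Crp, is a minor one. Crp was the 1 member whose HF values all lay below every LF value, where 0.921% of all probe sets were so placed. In pooled SDs from the LF mean, HF livers ran from -2.69 over -2.19 to -1.35 and LF livers from -1.28 over -0.28 to 2.29. The highest HF mouse, number 5, and the lowest LF mouse were close together. The standardized difference was -1.98 (-3.30 to -0.60; adjusted p = 0.118), and every fit that left out 1 mouse kept the sign. After quantile normalisation Crp held 1 value on all arrays.

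Crp in HF+P livers spread from -2.76 to 0.79 pooled SDs from the HF mean, against -0.72 to 0.50 in HF livers, with a difference of -0.72 (-1.79 to 0.39; adjusted p = 0.823). Apcs differed little between HF and LF, at 0.20 (-0.85 to 1.25; adjusted p = 0.919). In HF+P livers it ran from -2.48 over -1.76 to -0.96, against -1.41 over -0.28 to 1.84 in HF livers. There 4 HF+P mice were lower than all HF mice. The difference was -1.56 (-2.77 to -0.29; adjusted p = 0.595), and it stayed negative under quantile normalisation (-1.24) and median centring (-1.55).

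Mannose-binding lectins, encoded by Mbl1 and Mbl2, recognise microbial sugars and activate the serine proteases MASP-1 and MASP-2, which cleave C4 and C2. Of these 4 genes 3 had higher means in HF than in LF livers. The largest standardized difference of any member belonged to 1 of 5 Masp1 probe sets, 1438602_s_at. HF livers ran from 1.57 over 2.56 to 3.76 pooled SDs from the LF mean, and LF livers from -1.06 over -0.38 to 1.79. The groups overlapped by HF mouse 8 alone, which lay below LF mouse 4. The difference was 2.39 (0.89 to 3.83; adjusted p = 0.0679). It passed without LF mouse 4, at 3.26 (adjusted p = 0.0322), and when only the brighter 22518 probe sets were fitted (adjusted p = 0.0421).

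The other 4 Masp1 probe sets were also higher in HF, between 0.81 and 1.23, and the brightest, 1419677_at, gave 0.97 (-0.18 to 2.07). In HF+P against HF, 1438602_s_at stood at -1.51 (-2.72 to -0.25; adjusted p = 0.618), with HF+P livers from -3.10 over -1.76 to 0.03 and HF livers from -1.30 over 0.11 to 1.41. There 4 HF+P mice were lower than all HF mice. The probe set 1455346_at went the other way in that comparison, at 0.43. Quantile normalisation turned the sign of 1438602_s_at in both comparisons, to -0.56 and 0.41. It also turned that of 1455346_at in both, to -0.84 and -0.52. In HF against LF it turned the brightest, 1419677_at, to -1.51 (adjusted p = 0.0725).

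Mbl2 ran from 0.30 over 1.93 to 3.40 in HF livers and from -0.86 over 0.15 to 0.70 in LF livers, with 4 of 6 HF mice above every LF mouse. Its difference was 1.74 (0.43 to 3.005; adjusted p = 0.166), and 0.01 (-1.04 to 1.05) in HF+P against HF. Masp2 ran from -0.45 over 2.12 to 3.04 in HF livers and from -0.33 over -0.01 to 0.60 in LF livers. There 5 HF mice lay above every LF mouse and HF mouse 5 lay below all of them. The difference was 1.56 (0.29 to 2.78; adjusted p = 0.215). For HF+P against HF, Masp2 stood at -0.88 (-1.97 to 0.25; adjusted p = 0.785). Mbl1 differed by -0.15 (-1.19 to 0.90) in HF against LF and by 0.33 (-0.73 to 1.38) in HF+P against HF.

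C2 and factor B (Cfb) supply the protease subunits of the C3 convertases, and factor I (Cfi) together with C4b-binding protein (C4bp) cuts and inactivates C4b. All 4 genes had higher means in HF than in LF livers and lower means in HF+P than in HF livers. The 2 regulators had the larger values in both comparisons.

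Cfi ran from 1.13 over 2.56 to 3.45 pooled SDs from the LF mean in HF livers and from -1.56 over 0.33 to 1.32 in LF livers. Only HF mouse 1 fell within the range of the LF mice. Their standardized difference was 2.32 (0.85 to 3.74; adjusted p = 0.183). In HF+P livers Cfi ran from -2.91 over -1.81 to 0.57 and in HF livers from -0.91 over 0.10 to 0.61. There 5 HF+P mice were lower than all HF mice, and HF+P mouse 3 lay among them. The difference was -1.50 (-2.71 to -0.25; adjusted p = 0.705). The within-group SD of Cfi lay at the 3.06th percentile of all probe sets in HF and LF, and its sign turned with median centring, at -2.69, as most probe sets moved down.

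C4bp ran from 0.61 over 1.64 to 3.46 in HF livers and from -1.71 over 0.04 to 1.33 in LF livers, with 4 of 6 HF mice above every LF mouse. The difference was 1.68 (0.38 to 2.92; adjusted p = 0.181). HF+P livers ran from -2.67 over -1.59 to -0.92, against -1.19 over -0.20 to 2.04 in HF livers, and 4 HF+P mice were lower than all HF mice. That difference was -1.58 (-2.80 to -0.30; adjusted p = 0.586). Without HF mouse 3, the highest of the HF mice, the values were 1.57 and -1.59.

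C2, read by 3 probe sets, gave 0.99 (-0.16 to 2.10; adjusted p = 0.461) in HF against LF in its brightest one and -0.77 (-1.85 to 0.34; adjusted p = 0.811) in HF+P against HF. After quantile normalisation the brightest one was called higher in HF, at 2.15 (adjusted p = 0.0206), where 0.386% of all probe sets were. In that fit 14.6% of all probe sets were called lower, which makes the adjustment more lenient. HF mouse 4 was the highest and HF mouse 5 the lowest HF mouse in all 3. Cfb gave 0.30 (-0.76 to 1.35) and -0.26 (-1.31 to 0.79).

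**Figure D3:**
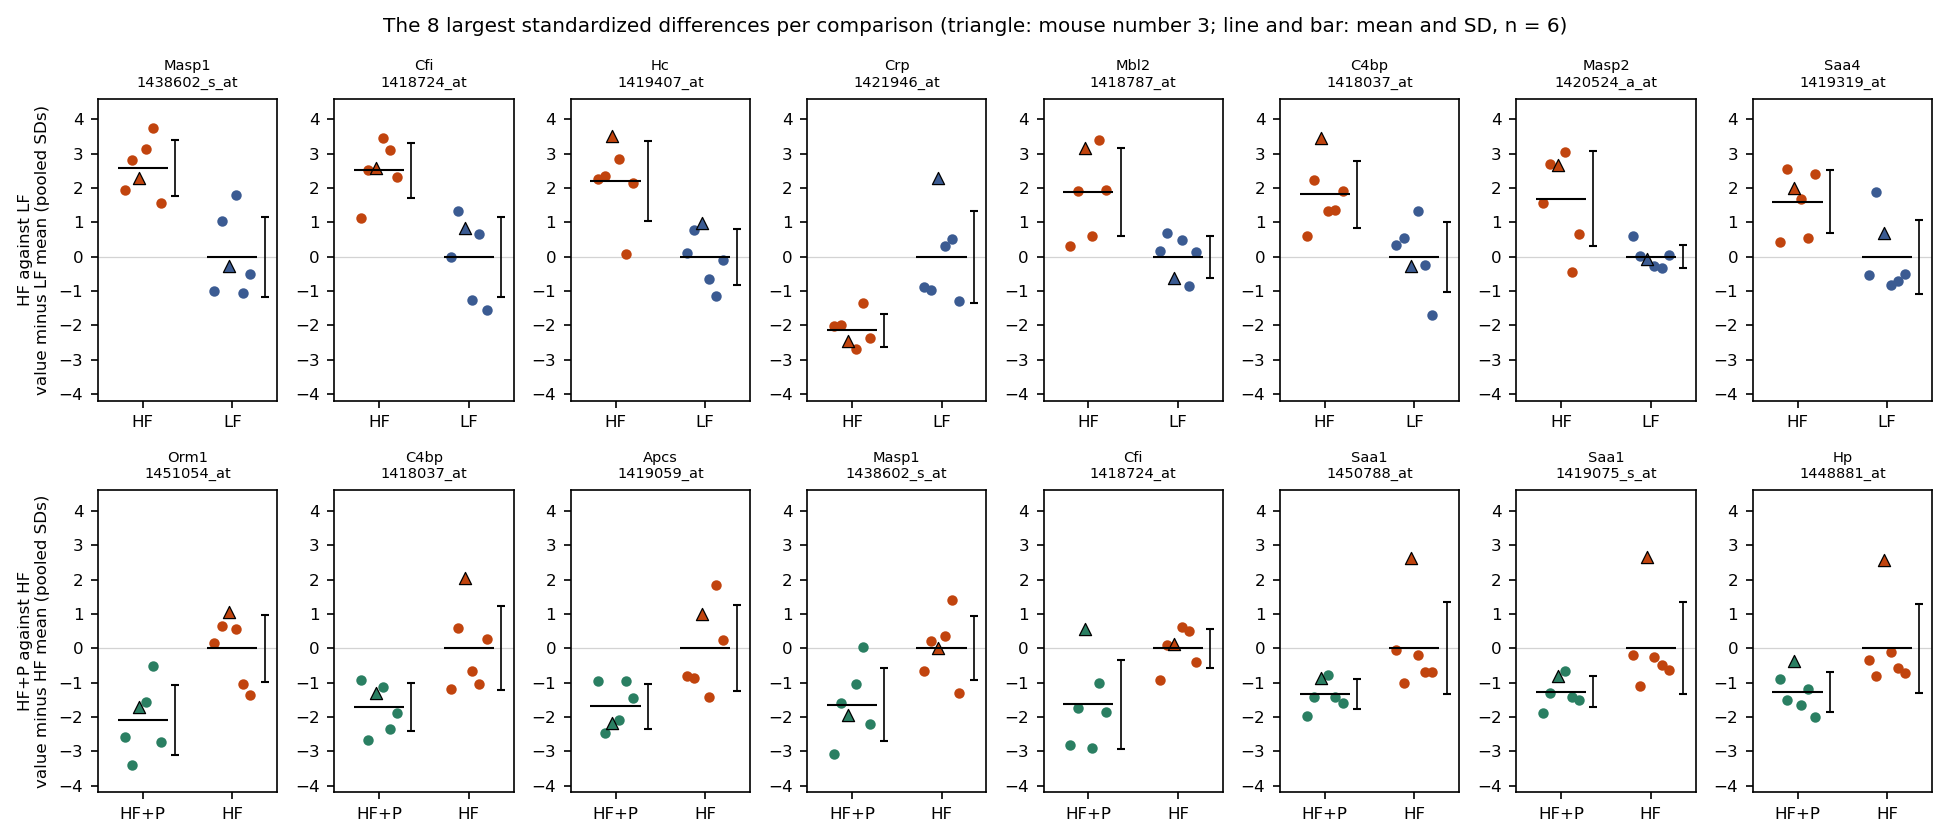
Values in every mouse for the 8 member probe sets with the largest standardized differences in HF against LF (upper row) and in HF+P against HF (lower row), in pooled SDs from the LF mean and from the HF mean. Points are mice, triangles mark the mouse numbered 3 of each group, and lines and bars give mean and SD (n = 6). Crp is the 1 panel in which the groups do not overlap, and in the lower row the HF triangle is far above the other HF mice for Saa1 and Hp.

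The terminal pathway runs from C5, encoded by Hc in the mouse, through C6 and the 3 chains of C8 to C9, which forms the pore. All 6 genes had higher means in HF than in LF livers, with a median of 0.69, and 5 of 6 had lower means in HF+P than in HF livers, with a median of -0.38. None passed. Hc was the largest of them. HF livers ran from 0.08 over 2.31 to 3.53 and LF livers from -1.14 over 0.01 to 0.97, with 5 of 6 HF mice above every LF mouse. HF mouse 5 lay in the middle of the LF mice. The difference was 2.03 (0.64 to 3.37; adjusted p = 0.111), and it passed without HF mouse 5, at 3.37 (adjusted p = 0.0291). Its sign turned with median centring, at -2.11, as most probe sets moved down. For HF+P against HF, Hc stood at -0.32 (-1.37 to 0.74; adjusted p = 0.935).

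HF mouse 5 was also the lowest HF mouse for C6, C8a, C8b and C9. C9 ran from -1.52 over 1.15 to 1.82 in HF livers and from -0.89 over 0.01 to 0.97 in LF livers, with a difference of 0.79 (-0.33 to 1.87; adjusted p = 0.578). C8b, C8a and C8g gave 1.13, 0.60 and 0.18, and C6 gave 0.07. In HF+P against HF the values were -0.40 for C9, -0.51 for C8b, -0.36 for C8a, -0.65 for C8g and 0.34 for C6.

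**Figure D4:**
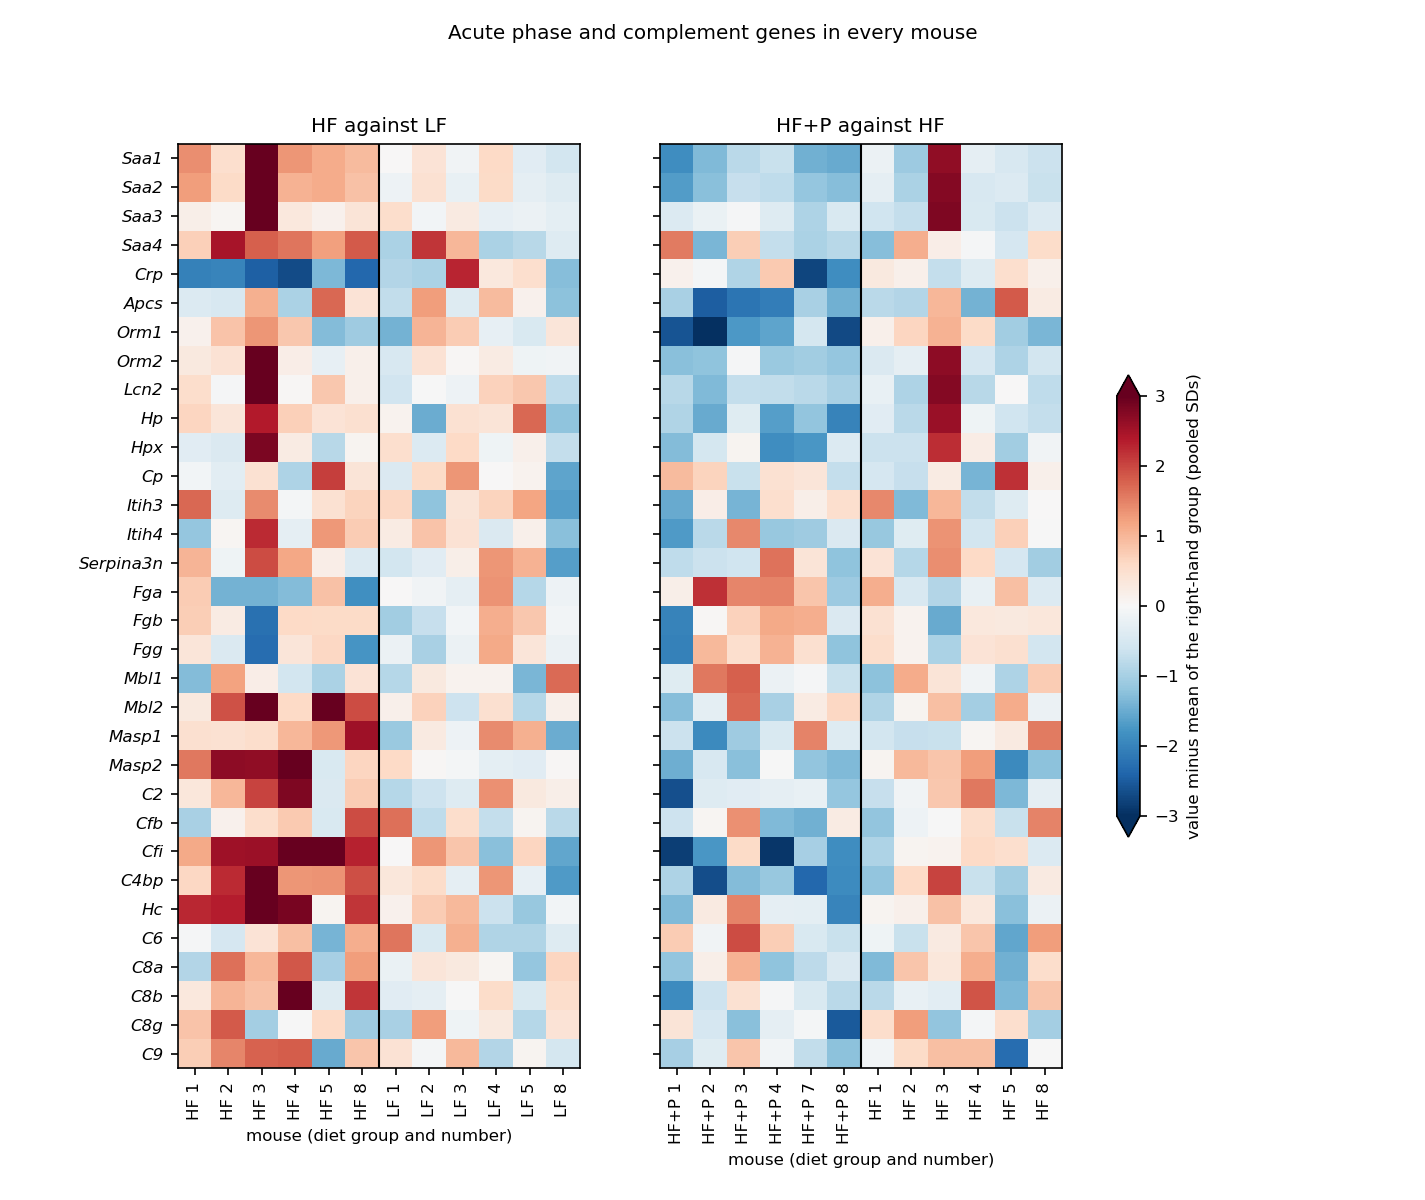
Values of 32 genes, 1 probe set per gene (rows), in every mouse (columns), in pooled SDs from the mean of the right-hand group: HF and LF mice on the left, HF+P and HF mice on the right. Red is higher and blue is lower, and the scale ends at 3. On the left HF mouse 3 is past the end of the scale for Saa1, Saa2, Saa3, Orm2, Lcn2, Hc, C4bp and Mbl2, while Cfi, Hc and Masp2 are red in most other HF mice too.

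The mean over the 32 genes summarises each mouse. In HF livers this score ran from 0.35 over 0.61 to 1.49 pooled SDs, and in LF livers from -0.50 over 0.05 to 0.30. Every HF mouse lay above every LF mouse, HF mouse 3 stood highest and the next HF mouse had 0.79. This was not particular to the members. The score of 29 coagulation and fibrinolysis genes also separated these groups, from 0.402 to 0.945 in HF and from -0.501 to 0.396 in LF livers. The scores of the other lists overlapped. In HF+P livers it ran from -1.04 over -0.59 to 0.03, and in HF livers from -0.34 over -0.10 to 0.81. There 5 HF+P mice were lower than all HF mice, and HF+P mouse 3 lay among them. The score weights each gene by its own spread and depends on the scaling described above. Among LF mice, number 8 had the lowest value of its group in 22 of 48 member probe sets (45.8%), where it was lowest in 15.6% of all probe sets. HF+P mouse 1 was lowest in 18 (37.5%, beside 15.9%).

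Other marker lists differed between the groups without a called gene, except fat cells. All 11 lymphocyte and NK cell markers and 10 of 13 Kupffer cell and macrophage markers had higher means in HF than in LF, with medians of 0.75 and 0.63, beside 0.63 for the members. Of the same markers, in HF+P against HF, 9 of 11 and 12 of 13 were lower, with medians of -0.45 and -0.66. Hepatocyte markers stood at 4 of 9 higher in HF than in LF and at 4 of 9 higher in HF+P than in HF. Of 9 endothelial markers 7 were lower in HF. The lymphocyte and NK cell markers had the low levels given above. The part of all these cell types in the values of the members was not tested.

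**Figure D5:**
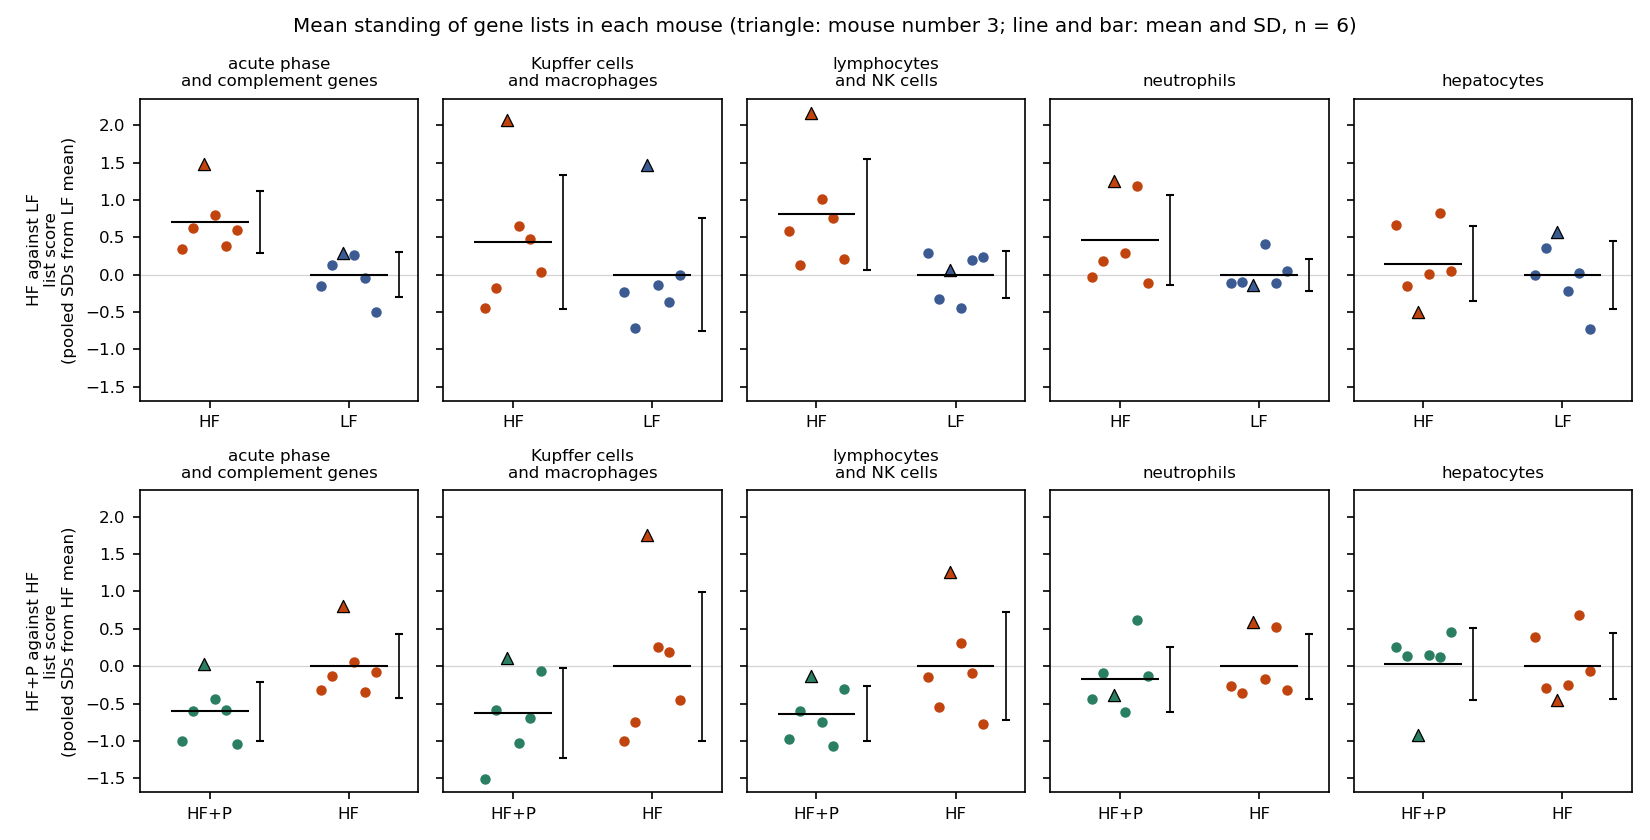
Mean standing of gene lists in every mouse, in pooled SDs from the LF mean (upper row, HF and LF) and from the HF mean (lower row, HF+P and HF). Points are mice, triangles mark the mouse numbered 3, and lines and bars give mean and SD (n = 6). HF mouse 3 is the highest HF mouse for the acute phase and complement genes, at 1.49, and for macrophage, lymphocyte and neutrophil markers, and the lowest for hepatocyte markers.

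Genes around the members were read from further lists. Of 31 measured genes of cytokine signalling to the acute phase, such as receptors, STAT, C/EBP and NF-kappaB factors, 22 had higher means in HF than in LF and 0 were called, and 21 had lower means in HF+P than in HF. Of 29 other complement components and regulators 24 were higher in HF than in LF and 24 lower in HF+P than in HF, with medians of 0.63 and -0.38, and 0 were called. Of 22 other acute phase proteins 10 were higher in HF than in LF, 8 were higher in HF+P than in HF, and 0 were called. Of 29 coagulation and fibrinolysis genes 20 were higher in HF than in LF, with a median of 0.68, while 15 were higher and 14 lower in HF+P than in HF, with a median of 0.0081. Of 11 proteins that decline in the acute phase 7 were higher in HF than in LF, with a median of 0.60, and 4 were higher in HF+P than in HF.

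A total of 3 genes of these lists and of the markers passed, all in HF against LF. Igf1, insulin-like growth factor 1, is among the proteins that decline in the acute phase, and it rose, with a standardized difference of 3.82 (1.84 to 5.75; adjusted p = 0.0100). That call was lost with median centring, at 0.45 (adjusted p = 0.406), and with quantile normalisation, where Igf1 held 1 value on all arrays. F11, coagulation factor XI, was the 1 coagulation gene that passed and rose, with 3.24 (1.46 to 4.95; adjusted p = 0.0222). It kept its call under both scalings, at 3.12 with median centring and 2.46 with quantile normalisation. There 93.4% and 14.6% of all probe sets were called lower, which makes the adjustment more lenient. F11 was not called without HF mouse 2, 3 or 4 or without LF mouse 3, 5 or 8, where the adjusted p lay between 0.0506 and 0.0633. Cidec, a lipid droplet protein used here as a fat cell marker and also made by hepatocytes that store fat, fell, with -3.97 (-5.95 to -1.94; adjusted p = 0.00803), and it passed under both scalings and without any single mouse. With the mouse number as a replicate block, Cidec and Igf1 did not pass (adjusted p = 0.0648 and 0.0578), and F11 did (adjusted p = 0.0305). Between HF+P and HF 0 genes of these lists passed.

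The 2 processings of the HF arrays can be set against each other for the same 6 mice. Of the member probe sets 31 of 48 (64.6%) kept the same order of the HF mice, where 24.7% of all probe sets did, and the lowest rank correlation of a member over the 6 mice was 0.66. The SD over the HF mice in the second processing was between 0.23 and 8.45 times that in the first. Saa1, Saa2, Saa3, Saa4, Lcn2, Orm2 and Cfi kept the same order.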

How the data were processed

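Liver RNA was hybridised to Affymetrix expression arrays, 1 per mouse. The deposited values were taken as log2. The log base and how the authors summarised and normalised them are not stated in the sources used here, and R 2.7.2 is named per the submitters' processing notes. The table has 24 columns: per the labels, the 6 HF arrays were processed with LF and again with HF+P, and the sets were never mixed.

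The 64 array controls were left out. For each comparison, limma 3.58.1 (lmFit, eBayes; R 4.3.3) was run on 45037 probe sets, 6 mice per group, with no covariate and Benjamini-Hochberg adjustment at 0.05. Standardized differences follow Hedges, with 95% noncentral t intervals. Listed genes are named by their brightest probe set and by others that differ in sign or pass, and the 8 largest per comparison are shown per mouse. Genes of 14 further lists, 9 of them cell type markers, are named only where called. Members, lists and tests were chosen with earlier results of these data known. The script was tested on simulated data. Alternatives were quantile normalisation, median centring, a filter on dim probe sets, 1 probe set per gene, a variance trend, a threshold of 0.10, a block on the mouse number and leaving out each mouse. Counts at an unadjusted p without each mouse were added after the values of HF mouse 3 were seen. The number of arrays limits the precision. Promoters are from RefSeq (GRCm38.p6), aligned with Biopython 1.88.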

Additional observations from a re-analysis of the deposited data

Results flagged for a closer look

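Of 164 groups of 6 values tested, 41 named probe sets in 4 sets of arrays, 20 held a mouse far from the others, measured as its gap to the nearest mouse over the range of the group. Chance alone does this in about 1 group of 20. In the HF values processed with LF, HF mouse 3 was far above the other 5 for Saa1 (0.759 and 0.735 in its 2 probe sets), Saa2 (0.815), Saa3 (0.907), Lcn2 (0.745), Orm2 (0.818), Hp (0.828) and Hpx (0.705), and far below them for Fgb (0.836). HF mouse 5 was far below the others for C9 (0.680).

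The same HF arrays processed with HF+P are not a second sample. There HF mouse 3 was again apart for Saa1 (0.759 and 0.734), Saa2 (0.819), Saa3 (0.911), Lcn2 (0.746), Orm2 (0.819), Hp (0.795) and, lowest, Fgb (0.817), and HF mouse 5 for C9 (0.687). Among HF+P mice, number 3 was far above the others for Orm2 (0.843). No LF mouse was found apart in a named member.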

How the results depend on the processing

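Counts of called members depend on the scaling in HF against LF. Quantile normalisation gave 2 higher and 2 lower, beside 0.386% and 14.6% of all probe sets, with a median standardized difference of 0. The 2 higher were Mbl1 (2.66), whose sign turned, and C2 (2.15). Median centring gave 3 higher (Saa1 in both probe sets and Saa2) and 25 lower, beside 0.715% and 93.4% of all probe sets, with a median of -1.33. With that many calls the adjustment is lenient, so the 3 higher calls add no support. Centring moves all probe sets alike, so the turned signs it gave do not bear on single genes. Signs turned in 20 named probe sets, of which 13 were also called lower. The 13 were those of Cfb (-2.42), Cp (-2.53), Cfi (-2.69), Hc (-2.11), Masp2 (-2.33), Hpx (-2.70), Fgb (-2.78), Itih4 (-2.53), Hp (-2.74), Itih3 (-3.01), Orm1 (-2.27), C8g (-2.76) and the Masp1 probe set 1455346_at (-2.64). Signs turned without a call for Masp1 in 1438602_s_at (-0.0076) and 1419677_at (-0.20), Mbl2 (-0.75), C4bp (-0.24), Serpina3n (-0.59), C8a (-0.23) and C6 (-0.30). For HF+P against HF the medians were 0 and 0.0205 with the same scalings, and 0 members were called. Of all probe sets 0% were called higher and 0.00222% lower with quantile normalisation, and 0.00444% and 0% with median centring. Without the dimmer probe sets, and at a threshold of 0.10, 1 member was called higher in HF (Masp1), beside 0.857% and 0.695% of all probe sets. Leaving out each mouse gave 0 to 1 members called higher in HF against LF, beside 0.127% to 0.269% of all probe sets. It gave 0 lower, beside 0.164% to 0.455%, with medians of 0.512 to 0.746. In HF+P against HF 0 members were called higher, beside 0% to 0.00444% of all probe sets, and 0 lower, beside 0%. The medians there were -0.659 to -0.390. The members with an unadjusted p below 0.05 then numbered 11 to 17 higher in HF, beside 4.84% to 6.12% of all probe sets, and 4 to 9 lower in HF+P, beside 2.84% to 3.76%. Those not overlapping numbered 1 to 5 higher in HF, 5 without LF mouse 4 (C4bp, Masp1, Saa1 and Saa2; 0.937% of all probe sets), and 0 to 3 lower in HF+P, 3 without HF+P mouse 3 (0.346%) and 3 without HF mouse 2 (0.351%). A fit with the mouse number as a replicate block called 0 members in both comparisons, with medians of 0.706 and -0.697. It called 0.242% of all probe sets higher and 0.304% lower in HF against LF, and 0% and 0.00222% in HF+P against HF. Same-numbered mice correlated at -0.130 to 0.0976 (6 pairs) and 0.0338 to 0.209 (5 pairs). The control mouse of the same number was the best match for 4 of 6 HF mice and for 3 of 5 HF+P mice. The labels do not say what the numbers share, and they were not taken as pairs in the main fit. Whether they mark a batch was not tested. Other causes of these changes were not tested.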
